A study of Mus musculus with 8 samples.

Results

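The genes described here are 34 genes of T cells, natural killer (NK) cells, their cytotoxic products and the receptors that restrain them, listed by name with no threshold on any measured value. Of the 34, 33 were measured by a probe set whose annotation, as far as given, names that gene alone. The array held 22836 such genes. The 33 fall into 16 T cell genes, 3 NK cell genes, 8 cytotoxic and effector genes, and 6 checkpoint and regulatory genes. The remaining one, Cd247, which encodes the zeta chain of the T cell receptor complex, lies on a probe set shared with another gene and was not used.

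Mice were of the strain C57BL/6N, and 4 received anti-Ang2, which blocks the vessel-destabilising ligand angiopoietin-2, and 4 received its isotype control (IgG). All 8 mice carried MT-ret tumour fragments on the ventral flank. MT-ret is a Ret oncogene-driven mouse model of melanoma. Antibody was started 7 days after grafting, as neo-adjuvant treatment, and stopped once the primary tumour had been resected. RNA was taken from whole tumour pieces, so tumour cells, blood vessels, stroma, infiltrating leukocytes and attached host tissue can all contribute. The labels used here give no age or sex of the mice, and do not say whether the grafted fragments came from 1 donor tumour. P-values therefore set a difference between the groups against the spread within the groups among these 8 tumours.

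T cells recognise antigen through a receptor that signals through the CD3 chains, the kinase Lck and the kinase Zap70. CD8+ T cells and NK cells kill by releasing perforin and granzymes, and both secrete interferon gamma. Receptors such as PD-1, CTLA-4, LAG-3 and TIGIT damp these responses, and regulatory T cells, defined by the factor Foxp3, do the same through other routes. PD-1, CTLA-4 and LAG-3 are targets of approved melanoma immunotherapies.

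No gene of the set differed between anti-Ang2 and IgG tumours beyond the spread between tumours after adjustment: 0 of 33 had a limma adjusted p under 0.05, as did 0% of all 22836 genes. The smallest adjusted p among the 33 was 0.689. Differences ran from -0.16 for Ncr1 to 0.30 for Thy1 on the log2 scale (anti-Ang2 minus IgG, as throughout). In sign, 26 of the 33 were higher and 7 lower in anti-Ang2 tumours, 78.8% higher with a median difference of 0.08. Over all genes 53.6% were higher with a median difference of 0.01. Over 1095 olfactory receptor genes, which are mostly silent outside olfactory tissue and serve here as a yardstick of the array's background, 60.9% were higher with a median of 0.03. At an unadjusted limma p under 0.05, 2 of 33 genes were counted, Nkg7 and Foxp3, against 7.09% of all genes. Nkg7 was the only gene of the 33 whose groups did not overlap, against 3.74% of all genes, or 2.28% counting those higher in anti-Ang2.

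The signals were dim. The median gene on these arrays had a mean log2 intensity of 6.10, and the middle 90% of olfactory receptor genes lay between 5.01 and 5.88. Only 10 of the 33 genes had a mean at or above 5.88: Zap70, Cd5, Cd6, Cd8b1, Thy1, Prf1, Tbx21, Nkg7, Lag3 and Foxp3. The other 23 lay inside the olfactory range, among them Cd3d, Cd3e, Cd3g, Cd4 and Cd8a, the genes that define T cells and their main subsets. Only Thy1 and Prf1 stood above the median gene, at percentiles 69.3 and 51.9 of all gene means. Gzma was dimmest at 5.30, near the olfactory median of 5.28. Probe sets differ in how well they bind, so these placements say how close each signal is to background and do not order the genes by abundance. Near background, a difference in array signal understates a difference in RNA. The pan-leukocyte gene Ptprc (CD45) averaged 6.28 in anti-Ang2 and 6.30 in IgG tumours, above the median gene. In bulk RNA of this kind, fewer cells of a type and less RNA per cell cannot be told apart.

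**Figure D1:**
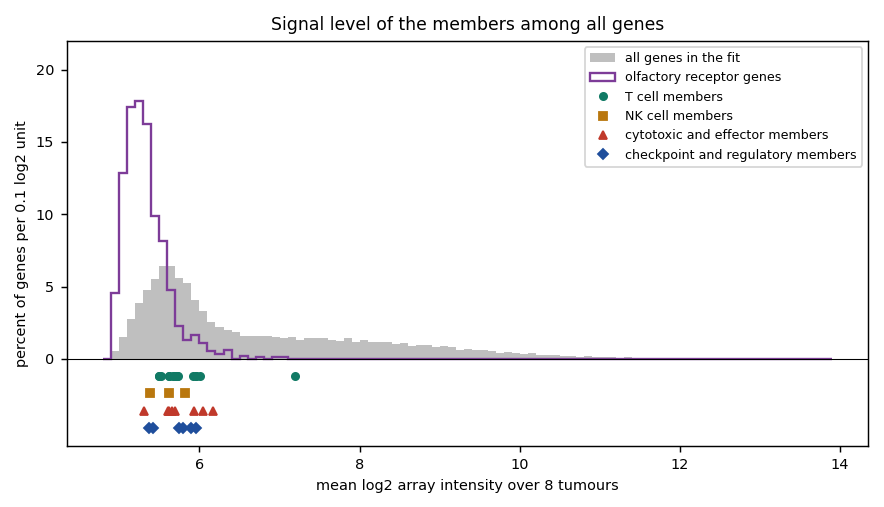
Distribution of mean log2 array intensity over the 8 tumours for all 22836 genes (grey) and for 1095 olfactory receptor genes (purple outline), as percent of genes per 0.1 log2 unit, with the 33 T cell, NK cell, cytotoxic and checkpoint genes marked below by role. All but Thy1, at 7.19, sit between 5.30 and 6.17, where the olfactory receptor genes lie or just above them.

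Among the T cell genes, 11 of 16 were higher and 5 lower in anti-Ang2 tumours, with a median difference of 0.04, and 0 passed the test. Cd3e, the signalling chain of the T cell receptor complex most used to mark T cells, had log2 intensities of 5.33, 5.96, 5.63 and 5.91 in anti-Ang2 tumours, against 5.78, 5.68, 5.63 and 5.84 in IgG tumours. The anti-Ang2 tumours held both its lowest and its highest value, and the groups overlapped. Cd3e differed by -0.03 (95% interval -0.32 to 0.27). The partner chain Cd3g read 5.79, 5.43, 5.66 and 5.50 in anti-Ang2 tumours, against 5.40, 5.64, 5.35 and 5.38 in IgG tumours. The groups overlapped through IgG replicate 2, and the difference was 0.15. The third chain, Cd3d, differed by -0.01.

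The co-receptors of the 2 main T cell lineages did not separate the groups. Cd4, which marks helper and regulatory T cells, read 5.78, 5.76, 5.73 and 5.63 in anti-Ang2 tumours, against 5.85, 5.61, 5.50 and 5.80 in IgG tumours. The anti-Ang2 values lay wholly inside the IgG range, and the difference was 0.03 (95% interval -0.18 to 0.25). Cd8a, the alpha chain of the co-receptor of cytotoxic T cells, read 5.56, 5.87, 5.51 and 5.55 in anti-Ang2 tumours, against 5.57, 5.84, 5.44 and 5.64 in IgG tumours. Each group held 1 tumour near 5.85 and 3 lower ones, and the difference was 0.00 (95% interval -0.25 to 0.25). As a fold, the interval covers 0.842 to 1.19. Cd8b1, the beta chain, differed by 0.09.

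Thy1 had the greatest difference of the set. It encodes Thy-1, a surface protein of mouse T cells that fibroblasts, some vessels and other stroma also carry, and it was also the brightest gene of the set. Its values were 7.33, 7.10, 7.49 and 7.45 in anti-Ang2 tumours, against 7.52, 6.87, 6.85 and 6.92 in IgG tumours. All 4 anti-Ang2 tumours exceeded 3 of the IgG tumours, while IgG replicate 1 had the highest value of all 8. The difference of 0.30 (SE 0.15, 95% interval -0.04 to 0.64) did not pass (limma adjusted p = 0.736; two-sided exact permutation p = 0.171, where 0.0286 is the smallest possible). Without IgG replicate 1 it was 0.46, still not past the threshold. That tumour was also the highest in the fibroblast marker mean, and the part of fibroblasts in the Thy1 values was not tested. The fibroblast mean ran from 8.02 to 8.56 in anti-Ang2 and from 7.61 to 8.79 in IgG tumours.

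The proximal signalling genes showed the same overlap. Zap70, the kinase recruited to the activated receptor, read 6.03, 6.16, 6.02 and 5.93 in anti-Ang2 tumours, against 5.87, 5.71, 5.87 and 6.04 in IgG tumours. IgG replicate 4 reached into the anti-Ang2 range, and the difference was 0.16. Lck, the kinase that phosphorylates the CD3 chains, differed by 0.08. Sh2d1a, the adaptor SAP, differed by 0.13, or 0.03 without anti-Ang2 replicate 1, and Ubash3a, a phosphatase-related inhibitor of receptor signalling, by 0.06. Of the surface receptors, Cd2, an adhesion receptor of T and NK cells, read 5.70, 5.68, 5.58 and 5.74 in anti-Ang2 tumours, against 5.76, 5.61, 5.89 and 5.91 in IgG tumours. It was among the 5 lower genes at -0.12, with overlap. The costimulatory receptors Cd27 and Cd28 differed by -0.12 and 0.10, and the modulators of receptor signalling Cd5 and Cd6 by -0.06 and 0.02.

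**Figure D2:**
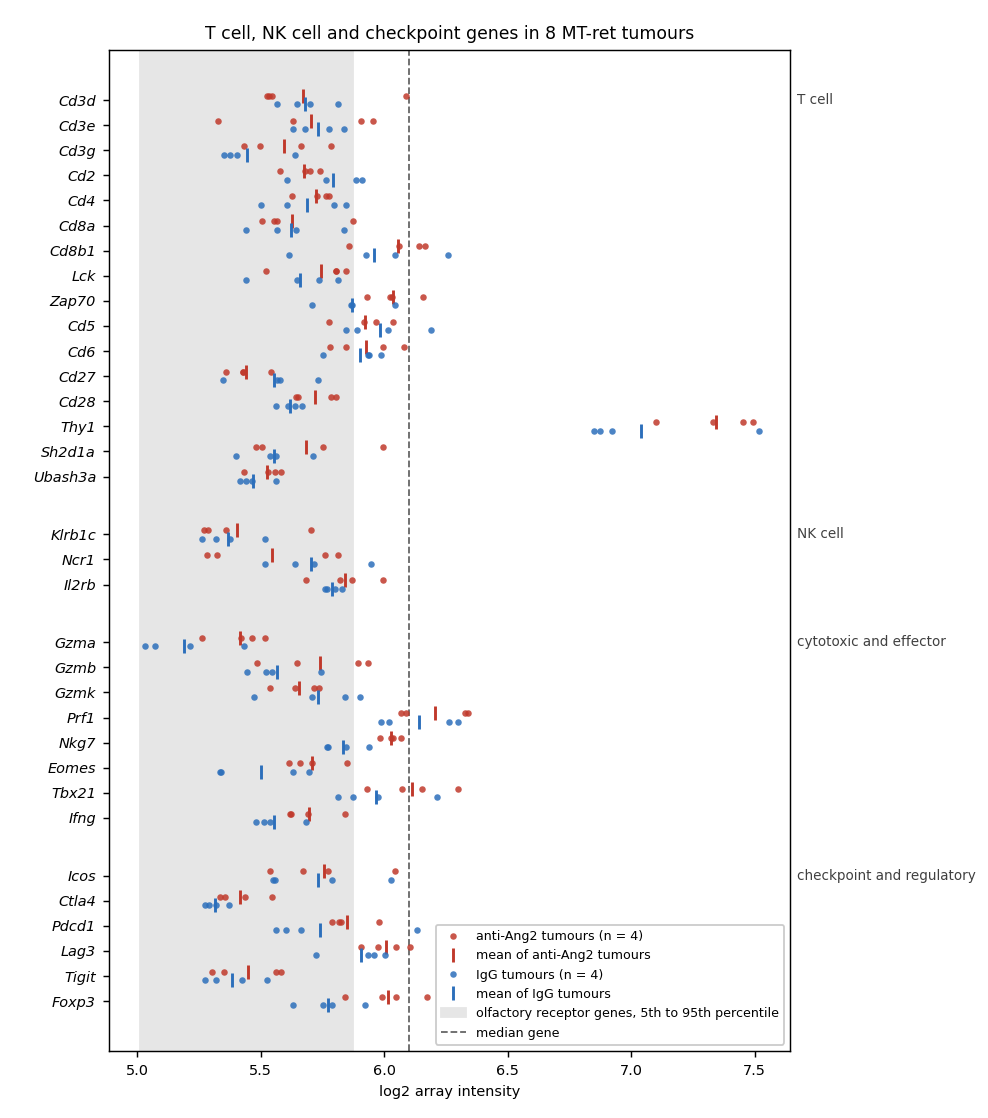
Log2 array intensity of each of the 33 genes in each of the 8 tumours (red, anti-Ang2, above; blue, IgG, below; n = 4 each), with ticks at group means, the middle 90% of olfactory receptor genes in grey and the median gene dashed. The 2 colours overlap in every gene except Nkg7, and most points lie inside the grey band.

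The 3 NK cell genes gave no common direction. Ncr1, which encodes the activating receptor NKp46 and is the most NK-restricted of them, read 5.28, 5.32, 5.81 and 5.76 in anti-Ang2 tumours, against 5.64, 5.94, 5.71 and 5.52 in IgG tumours. The anti-Ang2 tumours split into 2 low and 2 high values, all but one of the IgG values lay between these, and the difference was -0.16 (95% interval -0.47 to 0.16). Klrb1c, the NK1.1 receptor of C57BL/6 mice, read 5.36, 5.70, 5.27 and 5.28 in anti-Ang2 tumours, against 5.52, 5.26, 5.38 and 5.32 in IgG tumours. Its difference was 0.04, and it changed sign when either anti-Ang2 replicate 2, its highest tumour, or IgG replicate 2 was left out. Il2rb, the beta chain of the interleukin-2 and interleukin-15 receptors, read 5.68, 5.82, 5.87 and 6.00 in anti-Ang2 tumours, against 5.83, 5.77, 5.80 and 5.76 in IgG tumours. Its anti-Ang2 values lay on both sides of the narrow IgG range, with a difference of 0.05.

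Of the 8 cytotoxic and effector genes, 7 were higher in anti-Ang2 tumours, with a median difference of 0.16. The mean over the 8 genes lay between 5.77 and 5.88 in anti-Ang2 tumours and between 5.65 and 5.71 in IgG tumours, without overlap. The corresponding means of the T cell, NK cell and checkpoint genes overlapped between groups. Of all 20 lists read in these tumours, the mean did not overlap in 4, each higher in anti-Ang2: these cytotoxic genes, T cell receptor signalling (6.33 to 6.36 in anti-Ang2, 6.22 to 6.29 in IgG tumours), other checkpoint and costimulatory receptors (6.12 to 6.25 in anti-Ang2, 6.04 to 6.11 in IgG tumours) and neutrophil markers (5.69 to 5.90 in anti-Ang2, 5.51 to 5.67 in IgG tumours). Margins were narrow, down to 6.115 against 6.114 at the nearest tumours for the other checkpoint and costimulatory receptors. The array medians alone ran from 6.09 to 6.15. In those receptors the median difference was 0.04, with Tnfrsf9 at 0.90. In T cell receptor signalling it was 0.04, with Cblb and Lcp2 at 0.64 and 0.63. No mean over all genes or over olfactory receptor genes was set beside these. The part of neutrophils in the cytotoxic mean was not tested. Nkg7, a granule membrane protein of cytotoxic T and NK cells needed for degranulation, read 5.98, 6.07, 6.04 and 6.03 in anti-Ang2 tumours, against 5.77, 5.94, 5.77 and 5.85 in IgG tumours. Every anti-Ang2 tumour exceeded every IgG tumour, by a margin smaller than the IgG range. The difference was 0.20 (SE 0.08, 95% interval 0.02 to 0.37), a fold of 1.15. Its two-sided exact permutation p was 0.0286, the smallest possible with 4 against 4 and not adjusted for the number of genes, and its limma adjusted p was 0.689. In the authors' deposited table Nkg7 has a ratio of 1.15 and an unadjusted p of 0.00813, the lowest of the set.

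The granzymes are the serine proteases that perforin delivers into target cells. Gzma, a tryptase, read 5.26, 5.52, 5.46 and 5.42 in anti-Ang2 tumours, against 5.21, 5.07, 5.43 and 5.03 in IgG tumours. Only IgG replicate 3 reached the level of the anti-Ang2 tumours, and the difference was 0.23 (95% interval -0.01 to 0.46; limma adjusted p = 0.714). Gzmb, the apoptosis-inducing granzyme of killer cells, read 5.89, 5.65, 5.93 and 5.48 in anti-Ang2 tumours, against 5.44, 5.52, 5.55 and 5.74 in IgG tumours. The groups overlapped with a difference of 0.18, which was 0.11 without anti-Ang2 replicate 3. Gzmk, a further tryptase, differed by -0.07 and Prf1, perforin, by 0.07. Among the regulators, Eomes, a T-box factor of NK and memory CD8+ cells, read 5.62, 5.85, 5.66 and 5.71 in anti-Ang2 tumours, against 5.34, 5.33, 5.63 and 5.69 in IgG tumours. IgG replicates 1 and 2 were low, the other 2 IgG tumours lay inside the anti-Ang2 range, and the difference was 0.21 (limma adjusted p = 0.740). The related factor Tbx21 (T-bet) and its target Ifng, interferon gamma, both differed by 0.14.

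Gzmb belongs to a cluster of granzyme genes on chromosome 14, and its neighbours other than Gzmn behaved unlike it in 1 tumour. Apart from Gzmc and Gzmd, the neighbours read here, Gzmn included, were chosen after their values had been seen. Gzmc, Gzmd, Gzme, Gzmf and Gzmg encode granzymes of activated mouse killer cells. Gzmd read 7.25 in anti-Ang2 replicate 3 and 5.09 to 5.35 in the other 7 tumours, 4.09-fold above their median. Gzmg read 7.37 in the same tumour and 5.32 to 5.83 in the others (3.71-fold). Gzmf, at 6.74 against 5.29 to 5.63, and Gzmc, at 6.75 against 5.26 to 5.61, stood 2.70-fold and 2.43-fold above the median of the others. A probe set shared by Gzmd and Gzme read 6.50 there and 4.91 to 5.51 elsewhere. Gzmb itself, at 5.93 in that tumour, and Gzmn, at 5.47, stayed near the other 7 tumours. Of 22836 genes, 5 were at least 1 log2 unit above all other tumours in anti-Ang2 replicate 3, and 4 of these 5 were Gzmd, Gzmg, Gzmf and Gzmc. As 1 of 4 anti-Ang2 tumours, it left no difference between groups that passed the test: the differences were 0.36 for Gzmc, 0.56 for Gzmd, 0.46 for Gzmf and 0.57 for Gzmg, with limma adjusted p-values of 0.826, 0.810, 0.754 and 0.792. Gzmc, Gzmd, Gzmf and Gzmg are close copies of each other, so their probe sets may share signal and need not count as 4 separate observations.

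**Figure D3:**
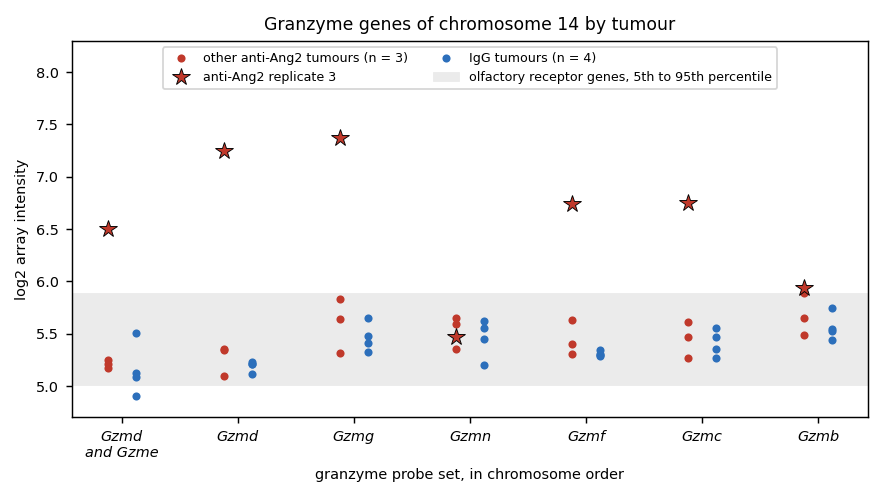
Log2 array intensity of the granzyme probe sets of chromosome 14, in chromosome order, in anti-Ang2 tumours (red; star, replicate 3) and IgG tumours (blue), with the middle 90% of olfactory receptor genes in grey. Replicate 3 stands between 6.50 and 7.37 for Gzmg, Gzmf, Gzmc and both probe sets of Gzmd, while every other tumour, and Gzmn and Gzmb throughout, lie at or near the grey band.

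The bases upstream of these genes are shown as a description. The 4 genes that stood apart in 1 tumour share most of them and Gzmb does not. Any part of this likeness in their values was not tested. Each stretch is the 150 bases before the 1 start per gene listed in a RefSeq promoter table, build GRCm38.p6, minus strand, written 5′ to 3′. For Gzmc and Gzmd the annotated gene reaches 6990 and 10 bases farther upstream than that start, so these 2 stretches lie wholly or partly inside the annotated gene. Capitals mark matches, on either strand, to TGTGGT (the core letters bound by Runx factors), TGACGTCA (the cyclic AMP response element, CRE) and TGANTCA (the letters of an AP-1 site).
Gzmb, chr14:56262335-56262484: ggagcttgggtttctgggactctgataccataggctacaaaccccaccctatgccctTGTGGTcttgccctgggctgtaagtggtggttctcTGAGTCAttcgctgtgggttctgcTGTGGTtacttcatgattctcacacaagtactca
Gzmd, chr14:56132594-56132743: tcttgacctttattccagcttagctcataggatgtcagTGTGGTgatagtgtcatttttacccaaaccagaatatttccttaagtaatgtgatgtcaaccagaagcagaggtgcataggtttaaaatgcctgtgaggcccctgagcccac
Gzmg, chr14:56159580-56159729: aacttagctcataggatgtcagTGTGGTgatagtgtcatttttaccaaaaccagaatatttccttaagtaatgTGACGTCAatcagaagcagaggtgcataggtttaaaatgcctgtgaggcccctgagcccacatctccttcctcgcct
Gzmf, chr14:56211408-56211557: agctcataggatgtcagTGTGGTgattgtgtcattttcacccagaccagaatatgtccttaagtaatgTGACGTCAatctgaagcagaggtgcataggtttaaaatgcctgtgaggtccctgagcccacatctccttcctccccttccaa
Gzmc, chr14:56234658-56234807: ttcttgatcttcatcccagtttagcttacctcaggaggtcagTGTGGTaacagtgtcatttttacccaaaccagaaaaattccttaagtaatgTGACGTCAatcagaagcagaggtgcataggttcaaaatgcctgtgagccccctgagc
Over the 250 bases upstream, Gzmc, Gzmd, Gzmf and Gzmg were 83.3% to 88.7% identical in their 6 pairs, whereas Gzmb matched each of these 4 at 53.1% to 55.5% and Gzmn at 52.1% to 56.3%. Gzmc, Gzmf and Gzmg each held 1 TGTGGT and 1 TGACGTCA, and Gzmd held 1 TGTGGT and no TGACGTCA. Gzmb held 2 TGTGGT and 1 TGANTCA. Among 27025 promoters, 8.53% held TGTGGT, 1.44% TGACGTCA and 4.27% TGANTCA in windows of this length. These are letter matches and do not show that a factor was bound.

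All 6 checkpoint and regulatory genes were higher in anti-Ang2 tumours, with a median difference of 0.10, and 0 passed the test. Foxp3, the factor that defines regulatory T cells, read 6.05, 5.99, 6.17 and 5.84 in anti-Ang2 tumours, against 5.79, 5.63, 5.92 and 5.75 in IgG tumours. Only anti-Ang2 replicate 4 fell below the highest IgG tumour. The difference was 0.24 (SE 0.10, 95% interval 0.02 to 0.46), a fold of 1.18, with a limma adjusted p of 0.690 and a two-sided exact permutation p of 0.0571. Ctla4, an inhibitory receptor that regulatory T cells carry constitutively, read 5.44, 5.35, 5.54 and 5.33 in anti-Ang2 tumours, against 5.32, 5.37, 5.27 and 5.29 in IgG tumours. The groups overlapped through IgG replicate 2, and the difference was 0.10.

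Pdcd1, which encodes PD-1, read 5.79, 5.98, 5.82 and 5.81 in anti-Ang2 tumours, against 6.13, 5.56, 5.66 and 5.60 in IgG tumours. As with Thy1, all anti-Ang2 tumours exceeded 3 IgG tumours and IgG replicate 1 was the highest of the 8. The difference was 0.11, and 0.24 without IgG replicate 1. Lag3, an inhibitory receptor for MHC class II, read 5.98, 6.05, 6.10 and 5.91 in anti-Ang2 tumours, against 5.72, 6.00, 5.93 and 5.96 in IgG tumours. The groups overlapped, and Lag3 differed by 0.10. Tigit, an inhibitory receptor for Pvr, and Icos, a costimulatory receptor of activated and regulatory T cells, differed by 0.06 and 0.02. In 5 of these 6 genes, all but Pdcd1, the highest of the 8 values came from anti-Ang2 replicate 3, the tumour that stood apart in the granzyme cluster. Icos and Tigit were near ties: Icos read 6.04 there and 6.03 in IgG replicate 2, and Tigit read 5.58 there and 5.56 in anti-Ang2 replicate 1. Over all genes anti-Ang2 replicate 3 was the highest of the 8 in 12.3%, over the 16 T cell genes in 0 and over the 8 cytotoxic genes in 1. Without it the median difference of the 6 genes was 0.07.

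**Figure D4:**
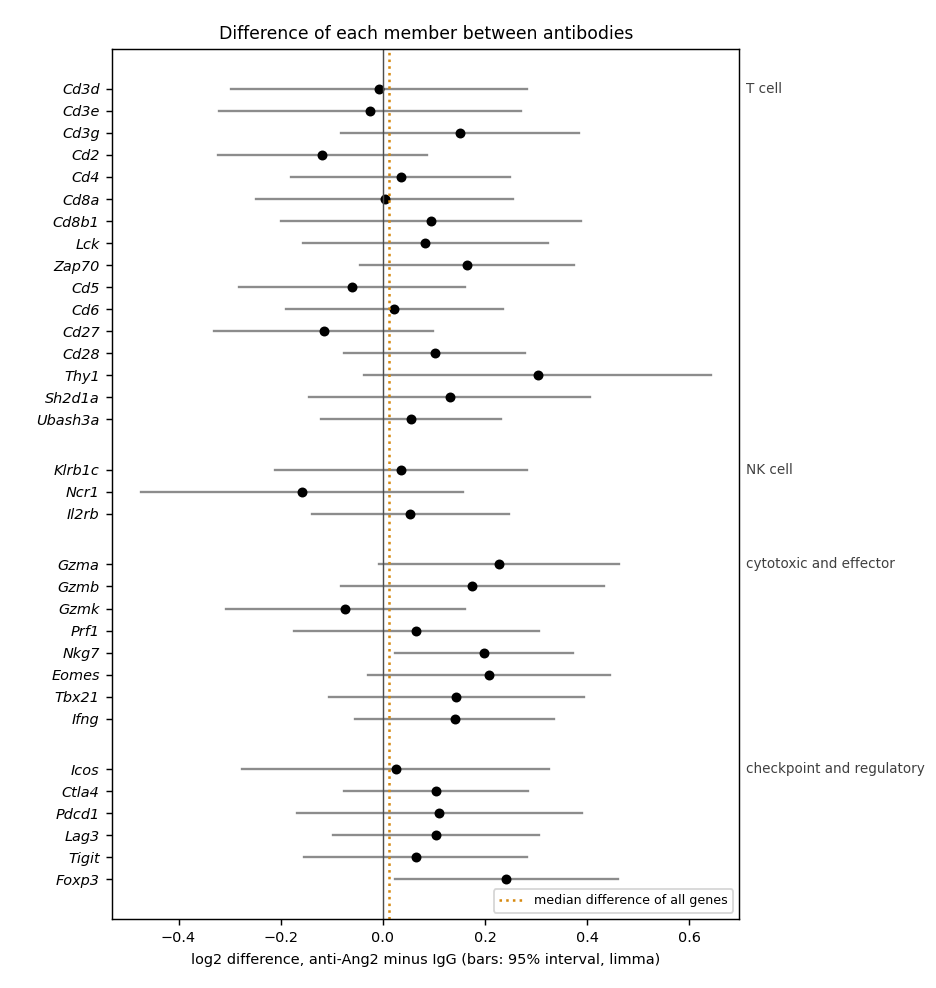
Log2 difference, anti-Ang2 minus IgG, of each of the 33 genes with its 95% interval from limma (n = 4 each), by role, with the median difference of all genes dotted. The interval includes 0 for all but Nkg7 (0.02 to 0.37) and Foxp3 (0.02 to 0.46), whose adjusted p-values were 0.689 and 0.690.

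Across the 8 tumours, 10 pairs of genes chosen by function were correlated, and 0 had an adjusted p under 0.05. Cd3e correlated with Cd8a at r = 0.40 (exact permutation p = 0.32, rho = 0.57, p = 0.151) and with Cd4 at r = 0.07 (exact permutation p = 0.871, rho = 0.21, p = 0.619). Without the 2 tumours farthest from the median of Cd3e these were 0.11 and 0.37. Cd3e correlated with Lck at r = 0.53 (exact permutation p = 0.185, rho = 0.31, p = 0.462). Its r with Ptprc was 0.51 (exact permutation p = 0.198, rho = 0.67, p = 0.0831). Without the same 2 tumours these were 0.06 and 0.85, the second with an adjusted exact permutation p of 0.403. With the muscle gene Acta1, Cd3e gave r = 0.31. The effector pair Gzmb and Prf1 gave r = -0.03 (exact permutation p = 0.946, rho = 0.05, p = 0.935), and -0.33 without 2 tumours. Foxp3 and Ctla4, both carried by regulatory T cells, had the highest coefficient among the 10, r = 0.67 (exact permutation p = 0.0636, adjusted p = 0.474, rho = 0.50, p = 0.216). Without the 2 tumours farthest from the median of Foxp3 it was 0.71, and for deviations from the group means it was 0.40. The NK pair Klrb1c and Ncr1 ran opposite ways at r = -0.61 (exact permutation p = 0.0948, adjusted p = 0.474, rho = -0.74, p = 0.0458), and -0.68 without 2 tumours.

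Genes of the wider pathway included brighter ones. Of 86 further genes of T cell and NK cell function in 6 lists, 78 were measured: 54 were higher and 24 lower in anti-Ang2 tumours, 0 passed the adjusted test, and 10 had an unadjusted limma p under 0.05, where 7.09% of all genes did. The groups did not overlap in 3 of the 78, Cblb, Ctsw and Lgals9, against 3.74% of all genes. In T cell receptor signalling (13 of 17 higher), Cblb, a ubiquitin ligase that restrains T cell activation, read 8.45, 8.31, 8.65 and 8.56 in anti-Ang2 tumours, against 7.74, 7.66, 8.07 and 7.96 in IgG tumours. The lowest anti-Ang2 tumour stood above the highest IgG tumour, with a difference of 0.64 (limma adjusted p = 0.435). Lcp2, the adaptor SLP-76 of T cells and myeloid cells, differed by 0.63 (adjusted p = 0.604). Cblb and Lcp2 are used by many cell types, and the part of T cells in their values was not tested. Among other NK and cytotoxic genes (7 of 13 higher), Ctsw, a cathepsin of cytotoxic cells, read 6.18, 6.23, 6.09 and 6.22 in anti-Ang2 tumours, against 5.88, 5.92, 6.00 and 5.84 in IgG tumours. Ctsw differed by 0.27 (adjusted p = 0.590), and Serpinb9, an inhibitor of granzyme B, and Klrc1, the NKG2A receptor, differed by 0.23 and 0.15.

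Of the other checkpoint and costimulatory receptors (8 of 12 higher), Tnfrsf9, the costimulatory receptor 4-1BB, read 8.46, 7.42, 7.39 and 6.78 in anti-Ang2 tumours, against 6.75, 6.36, 7.05 and 6.28 in IgG tumours. Anti-Ang2 replicate 1 was the highest, anti-Ang2 replicate 4 lay below IgG replicate 3, and the difference was 0.90 (limma adjusted p = 0.646). Tnfrsf18 (GITR) and Il2ra (CD25), both high on regulatory T cells, differed by 0.13 and 0.15. Of the checkpoint and costimulatory ligands, 9 of 12 were higher. Lgals9, galectin-9, which binds Tim-3, read 10.10, 9.98, 9.99 and 9.70 in anti-Ang2 tumours, against 9.33, 9.21, 9.62 and 8.98 in IgG tumours. Lgals9 differed by 0.66 (adjusted p = 0.444), and Pvr, the ligand of Tigit, differed by 0.35 and Cd70, the ligand of Cd27, by 0.17. Which cells gave the Tnfrsf9, Lgals9 and Pvr signals was not tested. Of the T cell chemoattractants and their receptors (6 of 10 higher), Cxcl9, induced by interferon gamma, differed by 0.46 (adjusted p = 0.670), Cxcl16 by -0.16 and Ccl5 by 0.12. Of the cytokines and their receptors (11 of 14 higher), Tgfb1, which favours regulatory T cells, differed by -0.49, Il7r, a survival receptor of T cells, by 0.26 and Il2rg, the common gamma chain, by 0.31.

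Markers of other cell types were read in the same tumours. The pan-leukocyte mean of 4 genes ran from 6.36 to 6.69 in anti-Ang2 and from 6.30 to 6.47 in IgG tumours. Ptprc differed by -0.02, with Itgb2 and Laptm5 at 0.24 and 0.23. The macrophage mean ran from 7.47 to 7.83 in anti-Ang2 and from 7.42 to 8.10 in IgG tumours, with Mertk at -0.60, Cd68 at 0.42 and Itgam at 0.26. Of the 8 macrophage genes 4 were higher and 4 lower, with a median difference of -0.01. The part of macrophages in these values was not tested. The B cell mean ran from 5.61 to 5.71 in anti-Ang2 and from 5.67 to 5.69 in IgG tumours, with Cd79a at -0.16 and Blk at -0.15. Of the 8 B cell genes 3 were higher and 5 lower. All 6 neutrophil genes were higher in anti-Ang2 tumours, and Mmp9, S100a8 and Retnlg differed by 0.31, 0.24 and 0.18. Their median difference of 0.16 equalled that of the cytotoxic genes, of which 7 of 8 were higher. Both lists were dim: 5 of the 6 neutrophil genes and 5 of the 8 cytotoxic genes lay below the 95th percentile of olfactory receptor genes. Dendritic cell genes Flt3, Batf3 and Siglech gave -0.19, 0.11 and 0.07 (4 of 6 higher). The mast cell genes Cpa3, Cma1 and Tpsb2 gave 0.27, 0.20 and 0.14 (5 of 6 higher). Of the B cell genes 7 of 8 lay below the 95th percentile of olfactory receptor genes, as did 5 of 6 dendritic cell and 6 of 6 mast cell genes. Endothelial Pecam1, Cdh5 and Kdr differed by 0.38, 0.30 and 0.23 (5 of 6 higher). Fibroblast Lum, Col1a2 and Pdgfra differed by -0.25, 0.23 and 0.21 (4 of 6 higher), and melanocyte Mlana, Tyrp1 and Dct by 0.38, 0.22 and -0.11 (5 of 8 higher). None of the marker genes named here passed the adjusted test.

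Among the 10 lists of such markers, skeletal muscle varied most. The mean of 10 muscle genes ran from 6.12 to 7.77 in anti-Ang2 tumours and from 6.48 to 9.95 in IgG tumours, highest in IgG replicates 1 and 2. Acta1, Myh1 and Eno3 differed by -2.42, -1.32 and -1.27. With that mean as a covariate 29 of the 33 genes were higher in anti-Ang2 tumours, 0 passed the adjusted test, and the genes at an unadjusted p under 0.05 were Thy1 and Pdcd1 in place of Nkg7 and Foxp3. IgG replicate 1 was the tumour with the highest Thy1 and Pdcd1 and the most muscle signal, and the part of muscle in those values was not tested beyond this covariate.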

How the data were processed

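Total RNA of 8 tumours, 250 ng each, was labelled as biotinylated single-stranded cDNA and hybridised to Affymetrix whole-transcript arrays, per the labels' protocols. The values the authors deposited are linear intensities, 1 for each probe set on each array. Background correction, summarization and normalization are not given in the sources used here. Per the file headers, the authors also give a fold (anti-Ang2 group mean divided by IgG group mean) and an unadjusted p-value. The workbook and the series value table matched to a relative difference of 4.94e-10.

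Of 24648 probe sets, 5 had missing values, 1389 carried several gene symbols and 419 no symbol used here, and all of these were left out. The 22836 remaining each named 1 gene. Foxp3, Klrb1c and Prf1 also lie on a probe set with several symbols, which was not used. For 1973 of them the annotation text is cut short and may omit further genes. A RefSeq table replaced 2270 outdated symbols.

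Log2 was taken with no pseudocount. R 4.3.3 and limma 3.58.1 (lmFit, then eBayes) compared the groups, with Benjamini-Hochberg adjustment over all 22836 genes and a threshold of 0.05. Single genes were also tested by two-sided exact permutation over 70 assignments (scipy 1.17.1). The fit was tested on simulated data. Upstream stretches came from RefSeq promoter windows and were aligned with free end gaps in Biopython 1.88. Precision rests on the 4 arrays a group: the standard error of a difference had a median of 0.106 for the 33 genes and 0.108 for all genes. Array medians ran from 6.09 to 6.15.

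The 34 genes, the gene lists, the pairs and the tests were chosen with earlier results of these data known. Every gene of the set is named with its difference. Values in every tumour are given for up to 4 T cell genes and up to 3 of each other role with the largest moderated t, and for Cd3e, Cd4, Cd8a, Ncr1, Gzmb, Pdcd1 and Foxp3. Each further list names up to 3 genes with the largest moderated t, and Ptprc, except 2 genes that are not reported here. Alternatives were other scalings, filters on dim genes, all probe sets, other variance options, array weights, blocks, a muscle covariate and each array left out.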

Additional observations from a re-analysis of the deposited data

Results flagged for a closer look

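In 7 of 172 combinations of a named gene and a group, 1 tumour stood so far from the other 3 that its gap, divided by the group's range, passed Dixon's 95% critical value for 4 values. Chance flags about 1 in 20 groups. Among the 33 genes of the set this held for 4 of 66 combinations. Cd3d read 6.09 in anti-Ang2 replicate 1, against 5.52 to 5.55 in the other anti-Ang2 tumours. Lck read 5.52 in the same tumour, below the 5.80 to 5.84 of the others, so the 2 T cell genes departed in opposite directions. Cd8a read 5.87 in anti-Ang2 replicate 2, above 5.51 to 5.56. Thy1 read 7.52 in IgG replicate 1, above the 6.85 to 6.92 of the other IgG tumours.

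The neutrophil-associated protease gene Mmp9 read 5.96 in IgG replicate 4, above 5.60 to 5.64. Gzmd read 7.25 in anti-Ang2 replicate 3, above 5.09 to 5.35, and the probe set of Gzmd and Gzme read 6.50 there, above 5.18 to 5.25.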

How the results depend on the processing

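Under 10 alternatives on all arrays and 8 that left out 1 array, 0 of the 33 genes passed the adjusted threshold. Over all genes 0 passed, except 1 gene without anti-Ang2 replicate 2 (range 0 to 1 with an array left out). At an unadjusted p under 0.05 the counts were 1619 genes, 934 higher and 685 lower, and 2 of the 33. Centring each array on its median turned that split to 743 higher and 815 lower. The number of the 33 that were higher was 26, or 24 to 27 with an array left out. It was 9 of 10 after a filter at the 95th percentile of olfactory receptor genes and 2 of 2 above the median gene, since fewer genes were tested.

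The median difference of the T cell genes, 0.04, was 0.0945 over the 5 that passed the olfactory filter. Only Thy1 of the T cell genes lay above the median gene, so the 0.303 found there is its own difference. With the muscle covariate the median of the T cell genes was 0.0995, where the cause was not tested. It was 0.0269 with quantile normalization and 0.029 with median centring. That of the checkpoint genes, 0.10, was 0.173 under the olfactory filter, which only 2 of them, Lag3 and Foxp3, passed. That of the cytotoxic genes was 0.0652 above the median gene, where only Prf1 remained. That of the NK genes, 0.04, was 0.012 to 0.0602 on all arrays and ran from -0.0643 (without anti-Ang2 replicate 2) to 0.0667 with an array left out. With an array left out, 24 of the 33 genes kept their sign and 9 did not: Cd3d (-0.145 to 0.0421), Cd3e (-0.109 to 0.101), Cd4 (-0.0273 to 0.0872), Cd8a (-0.080 to 0.0757), Cd8b1 (-0.0204 to 0.193), Cd5 (-0.107 to 0.00723), Cd6 (-0.0292 to 0.0702), Klrb1c (-0.0643 to 0.0847) and Icos (-0.0706 to 0.124). Of the 24, 19 moved by over 1.5 times with some array left out, among them Lck (0.01 to 0.16), Sh2d1a (0.03 to 0.20), Il2rb (0.00 to 0.11), Prf1 (0.01 to 0.12) and Lag3 (0.04 to 0.14). On all arrays, Cd8a turned to -0.0168 with quantile normalization, -0.0124 with median centring, -0.0071 with array weights and -0.0298 with tumour numbers up to 10 against above 10 as a block. With that block Cd3e was 0.00424 and Icos -0.038. With the muscle covariate Cd3e was 0.0645, Cd5 0.00383 and Gzmk 0.0715. The correlation of Cd8a with Gzmb was -0.155, or 0.112 without 2 tumours, and that of Cd8a with Pdcd1 was -0.0363, or 0.0205. The cause of these changes was not tested.

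Same-numbered tumours correlated at -0.05 to 0.08 in their deviations from group means, so the numbers were not taken as pairs. With the replicate number as a block 0 genes passed, 1639 had an unadjusted p under 0.05, and 26 of the 33 genes were higher. Foxp3 and Nkg7 were again at an unadjusted limma p under 0.05. With tumour numbers up to 10 against above 10 as a block, they were not, and only Eomes of the 33 was. Without anti-Ang2 replicate 3, 0 of the 33 were under 0.05, and without IgG replicate 4 the genes were Eomes and Zap70. Most of the 33 signals lie near background, which limits what these arrays can show.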

Other observations

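Thy1 was also set against the collagen gene Col1a1, a pair chosen after the values had been seen. The p-values of this pair, also those adjusted over 12 pairs, do not account for that choice. The part of fibroblasts in the Thy1 values was not tested by it. Across the 8 tumours Thy1 and Col1a1 correlated at r = 0.76 (exact permutation p = 0.0235, adjusted over 12 pairs 0.282) and rho = 0.79 (p = 0.0279, adjusted 0.275). Without the 2 tumours farthest from the median of Thy1, r was 0.65 (exact permutation p = 0.174), and for deviations from the group means it was 0.86 (exact permutation p = 0.00868, adjusted 0.104). Thy1 and the T cell gene Cd3e gave r = -0.06 (exact permutation p = 0.911) and rho = 0.14 (p = 0.752).

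Anti-Ang2 replicate 2 held the highest of the 8 values in 11 of the 33 genes, among them 6 of 16 T cell genes and 4 of 8 cytotoxic genes. Over all genes that tumour was the highest in 12.9%, and over the olfactory receptor genes in 15.6%. IgG replicates 2, 3 and 4 each held the highest value in 1 of the 33 genes, and over all genes in 11.8%, 14.1% and 6.79%.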
